A study of Mus musculus with 9 samples.

Results

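This account describes the genes of the lysosomal acidification and degradation machinery in cultured mouse islets: the vacuolar proton pump (V-ATPase), the cathepsins and 4 abundant lysosomal membrane proteins. Members were taken by symbol from the protein-coding genes of the count table: every symbol that starts with Atp6v or Atp6ap, every Cts symbol with a single further letter, and Lamp1, Lamp2, Cd63 and Scarb2. That gave 48 of 22048 genes: 14 of the V1 sector, 9 of the V0 sector, 3 accessory proteins, 18 cathepsins and 4 membrane proteins. By symbol the V1 set also holds Atp6v1fnb, which is named as the neighbour of Atp6v1f and is not known as a subunit. Islets of ICR mice, an outbred strain, were held for 3 days in RPMI medium with 10% fetal bovine serum at 11.8 mM glucose (the untreated culture medium), at 20 mM or at 35 mM glucose, and 3 libraries were made at each concentration. The series design calls these normoglycemic, hyperglycemic and extreme hyperglycemic conditions and asks how the islet expression program responds to them. All groups share the wild-type genotype, and no separate osmotic control is among the labelled samples. The treatment text gives the highest concentration as 25 mM, but every title and the design text say 35 mM, the value used here. The islets came from 9 mice, but no label says that each library is a mouse of its own, so p-values measure the spread between these libraries, which may be technical.

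The V-ATPase is a rotary pump that uses ATP to move protons into lysosomes, endosomes and secretory granules. Its cytosolic V1 sector (subunits A to H) splits ATP and its membrane-bound V0 sector (subunits a, c, c'', d and e) carries the protons. The acid interior activates the cathepsins, proteases that break down proteins and granules delivered to the lysosome. In beta cells the same pump acidifies insulin granules, where proinsulin is converted to insulin.

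Libraries were made with CEL-Seq2, which tags transcripts at their 3' end, so that counts do not grow with transcript length. Gene counts summed to between 3228648 and 4559561 per library, spread over 13366 to 13923 detected genes. Levels are given in CPM, on TMM-scaled library sizes, and so are comparable between libraries. Beta cell markers showed islet tissue in every library (Ins2 at 218223 CPM or more), with the exception of Mafa, which had 1 count in all. Acinar markers were present as well and were uneven, at a summed 4132 to 14556 CPM at 11.8 mM, 7950 to 13935 CPM at 20 mM and 7628 to 11533 CPM at 35 mM. Single libraries also stood apart. In 11.8 mM replicate 1 a sub-library had an Ins1 share of 11.8%, against a median of 26.3% in the others of that sample, and in 35 mM replicate 1 a sub-library had an Ins2 share of 10.6%, against 29.0%. Alignments that were not unique made up 21.9% and 22.6% of the counted reads in these libraries and 12.6% to 16.2% in the other 7. These are bulk libraries, in which fewer cells of a type and less RNA per cell cannot be told apart.

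None of the 33 members that passed the expression filter was called at 20 or 35 mM glucose. With edgeR's quasi-likelihood test and Benjamini-Hochberg adjustment over 9739 genes, 0 members had an adjusted p under 0.05 at 35 against 11.8 mM, where 0.863% of all genes tested were called. The count was also 0 at 20 against 11.8 mM (0.185% of all genes called) and at 35 against 20 mM (0.0308%). DESeq2 called 0 of the 32, 11 and 41 members to which it gave an adjusted p in these comparisons. The 3 comparisons share libraries with each other and are not independent.

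Below the calling threshold, 6 of the 33 members (18.2%) were under 0.05 at 35 against 11.8 mM, beside 10.5% of all genes tested. Of these, 1 was higher (all genes 5.63%) and 5 were lower (all genes 4.89%). At 20 against 11.8 mM it was 1 member, lower (3.03%, beside 7.97% of all genes in either direction, 4.45% higher and 3.52% lower). At 35 against 20 mM it was 4 members, all lower (12.1%, beside 5.29% in either direction, 2.73% higher and 2.56% lower). DESeq2 gave 6, 2 and 2 members with an unadjusted p under 0.05 in the same order. The 3 libraries of a concentration lay entirely above or below those of the other for 7 members at 35 against 11.8 mM (21.2%, beside 14.9% of all genes), for 4 at 20 against 11.8 mM (12.1%, beside 12.8%) and for 5 at 35 against 20 mM (15.2%, beside 11.9%). By direction these were 2 above and 5 below at 35 against 11.8 mM (all genes 8.22% and 6.69%), 2 above and 2 below at 20 against 11.8 mM (6.79% and 6.04%), and 0 above and 5 below at 35 against 20 mM (6.15% and 5.76%). The median log2 fold change of the tested members was -0.07, 0.03 and -0.09, and that of all genes tested was -0.0027, -0.0016 and -0.0012. A log2 fold change above 0 was found for 12, 20 and 9 of the 33 members, which is 36.4%, 60.6% and 27.3%, where all genes gave 49.6%, 49.8% and 49.8%.

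Markers of fibroblast, endothelial and immune cells lay mostly lower at 35 than at 11.8 mM, with no call among them. The fibroblast and stellate markers had a median log2 fold change of -0.53 (8 of 10 negative), the endothelial markers of -0.95 (3 of 3 negative) and the macrophage and immune markers of -0.29 (9 of 11 negative). In the same order the medians were -0.36, -0.62 and -0.30 at 20 against 11.8 mM, where the members had 0.03. At 35 against 20 mM they were -0.02, 0.07 and -0.10, where the members had -0.09. Among endocrine markers at 35 against 11.8 mM, the delta median was -0.32 (2 of 3 negative) and the alpha median -0.20 (4 of 5 negative, 1 called higher). The beta, acinar and ductal medians were 0.003, 0.08 and 0.09. Of the 7 tested beta markers, 1 was called higher (edgeR adjusted p = 0.00865). The 12 fibroblast and stellate genes summed to 441.9 to 771.3 CPM at 11.8 mM, 339.8 to 532.7 CPM at 20 mM and 297.9 to 533.5 CPM at 35 mM, and the 8 endothelial genes to 14.9 to 20.8, 9.9 to 20.7 and 11.6 to 12.3 CPM, with every gene of both lists detected. The part of these cells in the members' values was not tested.

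Intervals were taken member by member, without adjustment for the number of members or comparisons, and rest on the spread between these libraries. The 95% interval of the fold change lay within 2-fold either way for 30 of 33 members at 35 against 11.8 mM, for 30 at 20 against 11.8 mM and for 29 at 35 against 20 mM. It lay within 1.5-fold for 20, 26 and 22 members. The members with an interval reaching past 2-fold were Atp6v0d2, Ctsc and Ctse in each comparison, and Ctss at 35 against 20 mM. Standard errors of the members' log2 fold changes had medians of 0.152, 0.151 and 0.153.

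**Figure D1:**
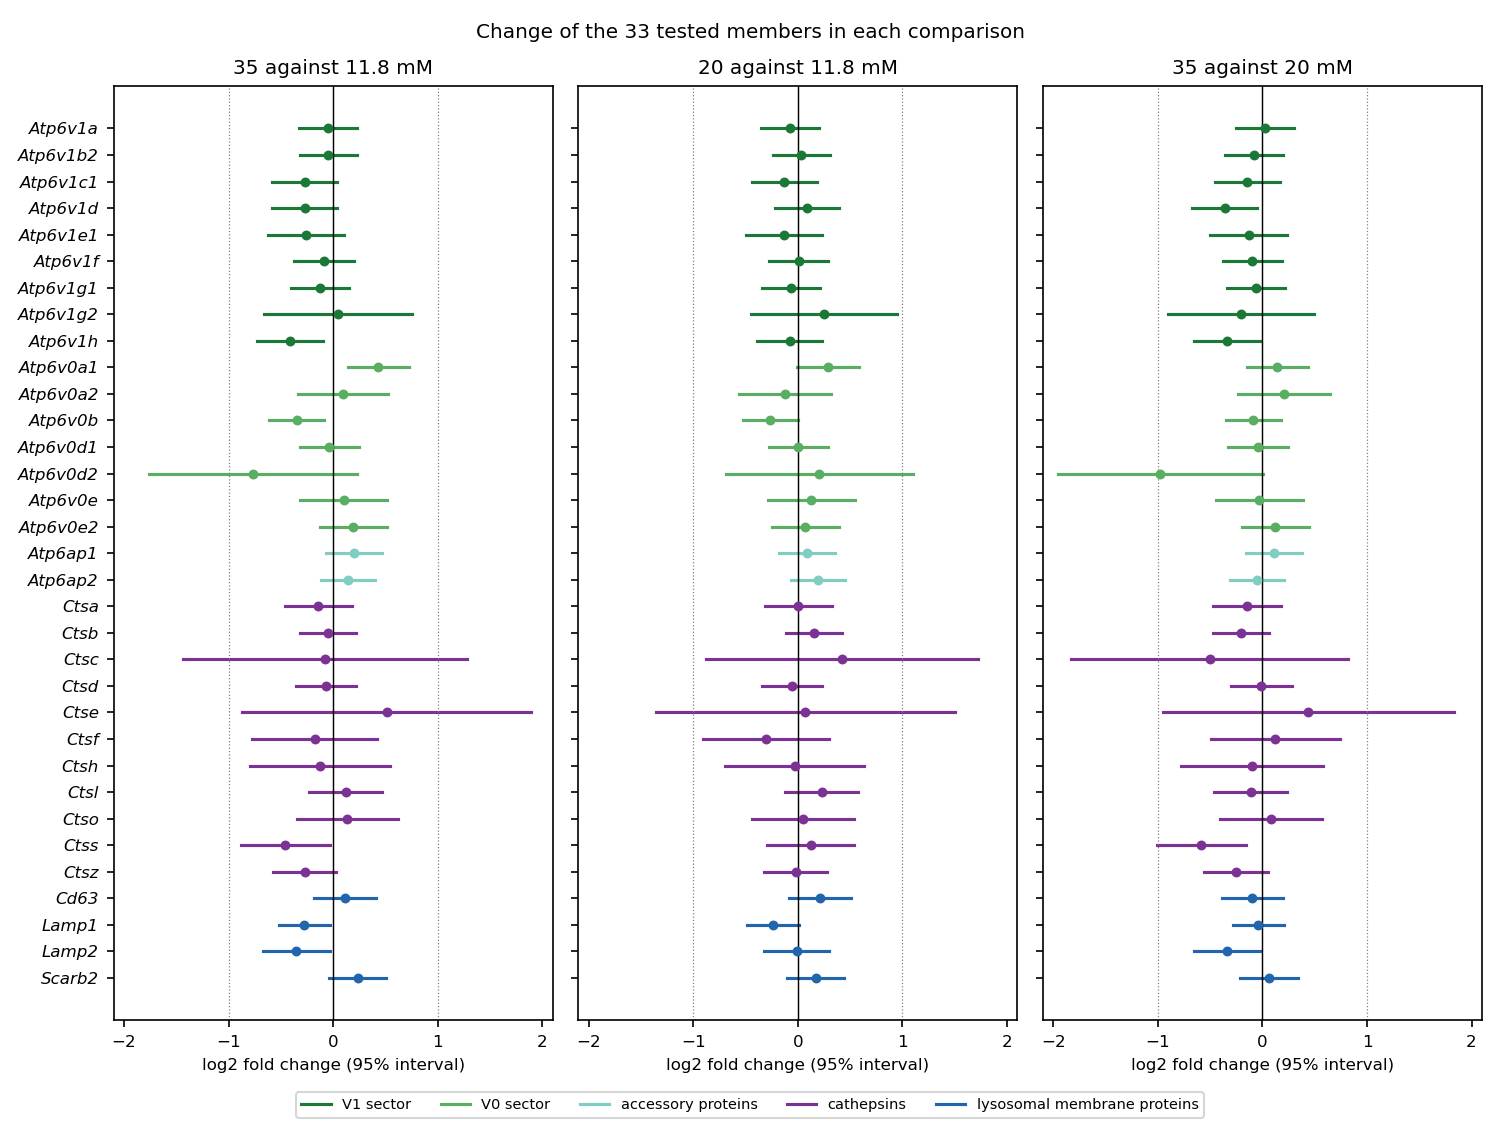
Log2 fold change (point) and its 95% interval (line) for the 33 tested members, in rows ordered by role, at 35 against 11.8 mM, 20 against 11.8 mM and 35 against 20 mM; dotted lines mark a 2-fold change either way. Most intervals cross 0 and stay inside the dotted lines, and those of Atp6v0d2, Ctsc and Ctse are the wide ones.

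The V1 sector was read at 9 of its 14 genes, and none of the 9 passed the test. Its most abundant member was Atp6v1f (subunit F, part of the central rotor stalk), with 230.0, 306.5 and 304.1 CPM at 11.8 mM, 314.4, 273.4 and 257.7 CPM at 20 mM and 226.5, 280.8 and 283.2 CPM at 35 mM. The 3 concentrations overlapped fully. Atp6v1g1 (subunit G of the outer stalk) followed with a mean of 257.4 CPM over the 9 libraries. The subunits that bind ATP, A (Atp6v1a) and B (Atp6v1b2), averaged 96.6 and 93.9 CPM. All other tested V1 genes had means of 5.4 to 60.5 CPM.

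At 35 against 11.8 mM, 8 of the 9 V1 log2 fold changes were negative, with a median of -0.13, and at 35 against 20 mM 8 of 9 were negative as well, with a median of -0.13. At 20 against 11.8 mM, 4 were positive and 5 negative. The lowest unadjusted p was that of Atp6v1h, the regulatory subunit H that in yeast inhibits the free V1 sector. It had 51.4, 67.4 and 83.0 CPM at 11.8 mM, 66.5, 65.4 and 59.2 CPM at 20 mM and 51.8, 48.2 and 51.4 CPM at 35 mM. The gene lies on chr1:5070018-5162529 (plus strand, GRCm38). The 35 mM libraries were low and close together, and they overlapped with the 11.8 mM libraries only through 11.8 mM replicate 1. Its log2 fold change was -0.41 ± 0.15 (SE) at 35 against 11.8 mM (edgeR adjusted p = 0.292) and -0.34 ± 0.15 at 35 against 20 mM (adjusted p = 0.932). Without 11.8 mM replicate 1 the change at 35 against 11.8 mM was -0.58 with an adjusted p of 0.0409, so that this library, which holds an outlying sub-library, decided whether Atp6v1h was called. With the outlying sub-libraries of 11.8 mM replicate 1 and 35 mM replicate 1 left out the change was -0.40 (adjusted p = 0.386). Exons of Atp6v1h overlap those of Rgs20 on the opposite strand, and since the counting strand is not given in the sources used here its count is uncertain.

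Atp6v1d, which encodes the rotor shaft D, had 54.1, 58.3 and 58.0 CPM at 11.8 mM, 51.7, 71.3 and 57.8 CPM at 20 mM and 40.5, 53.7 and 47.2 CPM at 35 mM. Every 35 mM library was below every 11.8 mM library, whereas the 35 and 20 mM libraries overlapped. Its log2 fold change was -0.27 ± 0.15 at 35 against 11.8 mM (edgeR adjusted p = 0.567) and -0.36 ± 0.15 at 35 against 20 mM (adjusted p = 0.905). Atp6v1c1, the subunit C that joins the sectors, also had no overlap at 35 against 11.8 mM, with 40.0 ± 5.5 CPM at 35 mM and 48.2 ± 3.7 CPM at 11.8 mM (SD, n = 3 each; log2 fold change -0.27 ± 0.15). The summed V1 level was 869.5 ± 63.2 CPM at 35 mM and 956.6 ± 118.9 CPM at 11.8 mM (SD, n = 3 each), and the groups overlapped.

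**Figure D2:**
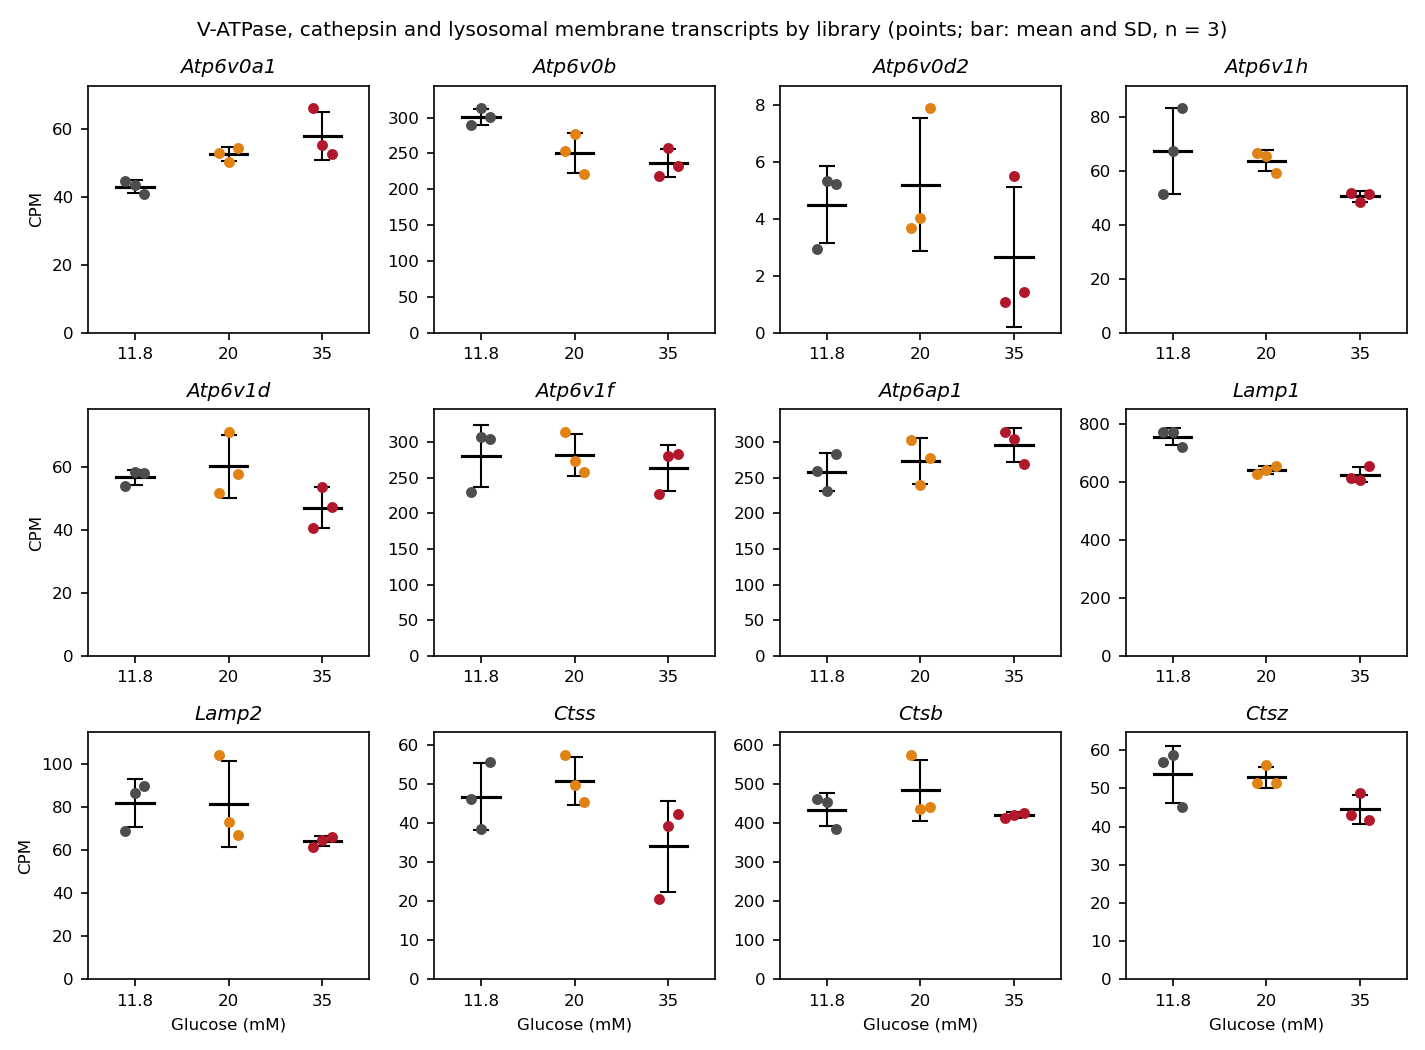
CPM in each library (points) at 11.8, 20 and 35 mM glucose, with the mean and SD (n = 3), for the members chosen by smallest unadjusted p or by the highest mean level of their role, and for Ctsz; each panel has its own axis from 0. For Atp6v0a1 all 11.8 mM points lie below the points of the other concentrations, and for Lamp1 and Atp6v0b they all lie above them.

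In the V0 sector 7 of 9 genes were tested and none was called, though the pair with the smallest p among all members lies here and points in opposite directions. Atp6v0a1, the isoform of the membrane subunit a best known from synaptic vesicles, had 44.5, 43.5 and 40.8 CPM at 11.8 mM, 53.0, 50.3 and 54.4 CPM at 20 mM and 66.0, 55.2 and 52.6 CPM at 35 mM. The gene lies on chr11:101009452-101063719 (plus strand, GRCm38). All 11.8 mM libraries were below all libraries of the higher concentrations. The log2 fold change was 0.43 ± 0.14 at 35 against 11.8 mM (edgeR adjusted p = 0.218, rank 243 of 9739 by p) and 0.29 ± 0.14 at 20 against 11.8 mM (adjusted p = 0.634). At 35 against 20 mM it was 0.14 ± 0.14, with overlapping libraries.

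Atp6v0b encodes c'', a proteolipid of the proton-carrying ring, at chr4:117884326-117887333 (minus strand), and was the most abundant V0 gene. It had 290.0, 312.7 and 300.9 CPM at 11.8 mM, 253.1, 277.4 and 221.7 CPM at 20 mM and 218.7, 257.8 and 232.6 CPM at 35 mM. All 11.8 mM libraries were above all libraries of the higher concentrations. Its log2 fold change was -0.35 ± 0.13 at 35 against 11.8 mM (edgeR adjusted p = 0.283) and -0.26 ± 0.13 at 20 against 11.8 mM (adjusted p = 0.620). The annotated gene Gm12841 overlaps its exons on the opposite strand, so this count too is uncertain.

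Atp6v0d2, the d isoform best known from osteoclasts and macrophages, was close to the limit of detection, with 11, 23 and 18 counts at 11.8 mM, 12, 16 and 28 counts at 20 mM and 4, 19 and 5 counts at 35 mM. That corresponds to 1.1 to 7.9 CPM. The 35 mM libraries held both the lowest values and a value inside the range of the others. The log2 fold change of -0.77 ± 0.48 at 35 against 11.8 mM (edgeR adjusted p = 0.640) was -0.38 without 35 mM replicate 1 and -1.83 without 35 mM replicate 2. The 13 macrophage and immune markers, all detected, summed to 164.7 to 195.6 CPM at 11.8 mM, 140.7 to 179.5 CPM at 20 mM and 114.7 to 203.7 CPM at 35 mM. With that summed level as a covariate the log2 fold change was -1.46 (adjusted p = 0.324). The part of immune cells in the Atp6v0d2 values was not tested. Of the other V0 genes, Atp6v0d1, Atp6v0e, Atp6v0e2 and Atp6v0a2 had log2 fold changes of -0.12 to 0.21 over the 3 comparisons, and only Atp6v0e2 showed libraries without overlap, at 35 against 11.8 mM.

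The V-ATPase subunits B, C, E, G and d were read mostly from a single gene copy, whereas subunits a and e were mixed. Pooled over the 9 libraries, Atp6v1b2 held 99.9% of 3084 subunit B counts, Atp6v1c1 99.9% of 1457 subunit C counts and Atp6v1e1 100% of 1087 subunit E counts. The tissue-restricted copies Atp6v1b1, Atp6v1c2 and Atp6v1e2 had 2, 1 and 0 counts. Subunit G was 97.9% Atp6v1g1 and 2.08% Atp6v1g2, a form known from neurons, while Atp6v1g3 had no count. Subunit d was 94.3% Atp6v0d1 and 5.67% Atp6v0d2. For subunit a, Atp6v0a1 held 77.2% (95% Wilson interval 75.4% to 78.9%, counting error only) and Atp6v0a2 22.7% of 2176 counts. For subunit e, Atp6v0e2 held 61.8% (59.6% to 64.0%) and Atp6v0e 38.2% of 1895 counts. The kidney form Atp6v0a4 had 3 counts, and the a3 gene Tcirg1, which was not taken by the symbol rule, had 31 counts and was not tested. Per library the Atp6v0a1 share ran from 70.8% to 77.8% at 11.8 mM, from 76.2% to 80.8% at 20 mM and from 76.6% to 79.6% at 35 mM, so that the concentrations overlapped. Exons of Atp6v0a2, Atp6v1g2 and Atp6v1e1 overlap those of 4930404A12Rik, Nfkbil1 and Slc25a18 on the opposite strand. Since the counting strand is not given, the shares of subunits a, G and E are uncertain beyond their counting error.

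**Figure D3:**
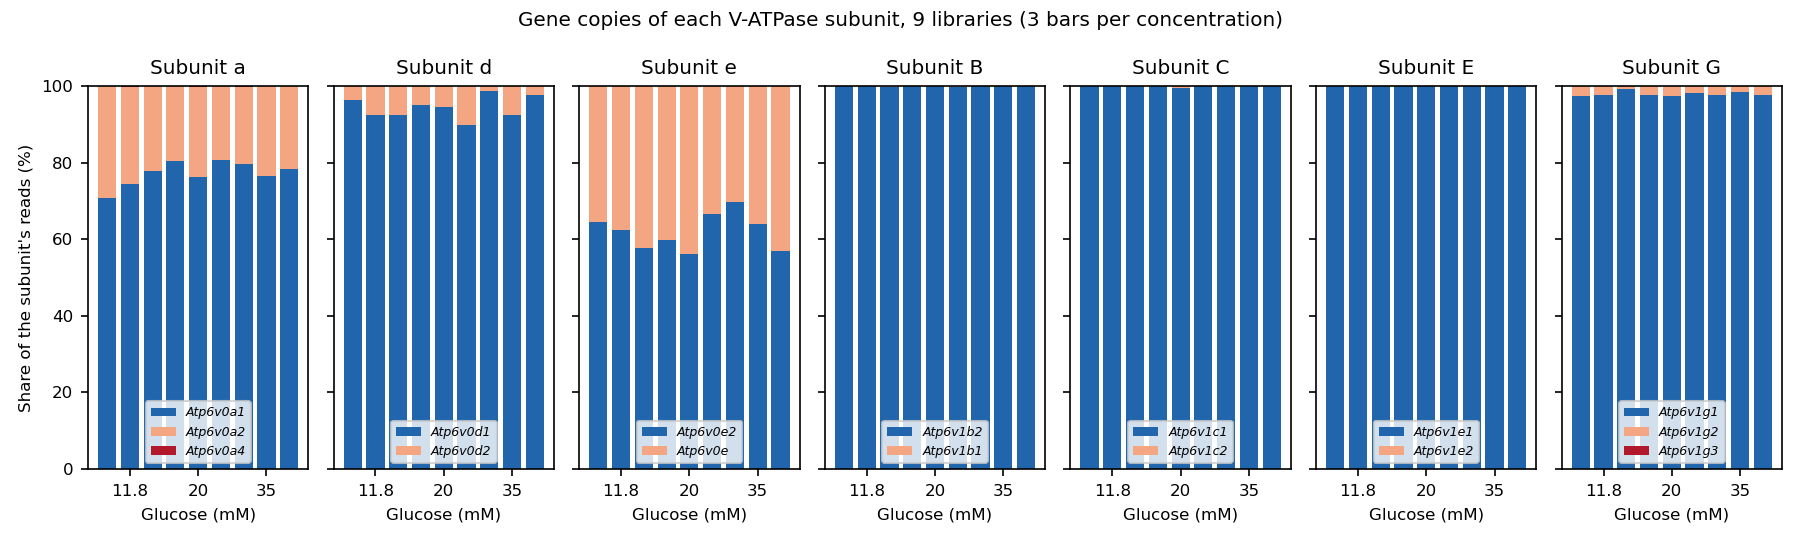
Share of each subunit's counts (percent, y axis) held by each gene copy in each of the 9 libraries, ordered 11.8, 20 and 35 mM. Subunits B, C, E and G are almost entirely of a single copy in every library, whereas a and e are mixed at all concentrations.

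Atp6v0c, the gene of the main proteolipid c of the ring, had 3 counts in all 9 libraries together, a level at the floor of 3 counts that 33137088 gene counts allow (0.0905 CPM). Reads that align to several places were not assigned to genes, and made up 12.6% to 22.6% of the counted reads per library. Words of 50 bases were pooled over the last 300 bases of all annotated protein-coding transcripts of a gene. Of 753 such words of Atp6v0c, 251 (33.3%) also occur in the processed pseudogenes Atp6v0c-ps1 and Atp6v0c-ps2, which have no row in the count table. A single end of 300 bases holds 251 words, so the share for the transcript end that was read may be far from 33.3%, in either direction. The count of Atp6v0c is therefore uncertain and is not read as a level of the transcript. Cd63 shares 58.7% of such words with Cd63-ps, and its level is uncertain in the same way. For 43 of the other members no such word occurred in another gene, and for Atp6v1f, Ctsa and Ctsm the shares were 2.79%, 1.08% and 3.26%.

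The accessory proteins were among the abundant members and showed small positive differences that were not called. Atp6ap1 (Ac45, which guides the pump in regulated secretory cells) had 259.8, 231.0 and 282.9 CPM at 11.8 mM, 303.3, 239.8 and 277.8 CPM at 20 mM and 314.5, 304.0 and 269.0 CPM at 35 mM. The concentrations overlapped, and the log2 fold change at 35 against 11.8 mM was 0.20 ± 0.13 (edgeR adjusted p = 0.669). Atp6ap2, the prorenin receptor, averaged 262.6 ± 17.4 CPM at 35 mM and 238.6 ± 24.4 CPM at 11.8 mM (SD, n = 3 each; log2 fold change 0.14 ± 0.13). At 20 mM its libraries, at 272.3 ± 11.6 CPM, all exceeded those at 11.8 mM (0.19 ± 0.13, adjusted p = 0.755). Atp6ap1l had 1 count.

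Among the membrane proteins, Lamp1 and Lamp2, the heavily glycosylated proteins that line the lysosome, were lower at 35 than at 11.8 mM in every library, without passing the test. Lamp1 (chr8:13159161-13175338, plus strand), the most abundant of all 48 members, had 771.6, 772.7 and 721.3 CPM at 11.8 mM, 625.4, 641.1 and 654.0 CPM at 20 mM and 612.9, 605.6 and 653.3 CPM at 35 mM. The 11.8 mM libraries stood apart from the rest, and the 20 and 35 mM libraries overlapped. The log2 fold change was -0.28 ± 0.12 at 35 against 11.8 mM (edgeR adjusted p = 0.408) and -0.24 ± 0.12 at 20 against 11.8 mM (adjusted p = 0.637). Across the alternative settings of the analysis it ran from -0.31 to -0.23 in the first of these and was never called. Exons of Lamp1 overlap those of Grtp1 on the opposite strand.

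Lamp2 (chrX:38401357-38456454, minus strand), whose A form is the receptor of chaperone-mediated autophagy, had 68.8, 86.6 and 89.7 CPM at 11.8 mM, 104.1, 72.8 and 66.8 CPM at 20 mM and 61.4, 64.5 and 66.2 CPM at 35 mM. The 35 mM libraries were lower than all 6 others, and 20 mM replicate 1 was the highest. The log2 fold change was -0.35 ± 0.15 at 35 against 11.8 mM (edgeR adjusted p = 0.412) and -0.34 ± 0.16 at 35 against 20 mM (adjusted p = 0.932). Without 20 mM replicate 1 the value at 35 against 20 mM was -0.13. Scarb2 (LIMP-2, the receptor that carries glucocerebrosidase to lysosomes) averaged 90.8 ± 7.7 CPM at 35 mM and 77.1 ± 8.3 CPM at 11.8 mM (SD, n = 3 each; log2 fold change 0.23 ± 0.13, adjusted p = 0.578). Cd63, a tetraspanin of late endosomes and granules, averaged 375.7 ± 7.0 CPM at 35 mM and 346.9 ± 57.6 CPM at 11.8 mM (SD, n = 3 each), and the groups overlapped.

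**Figure D4:**
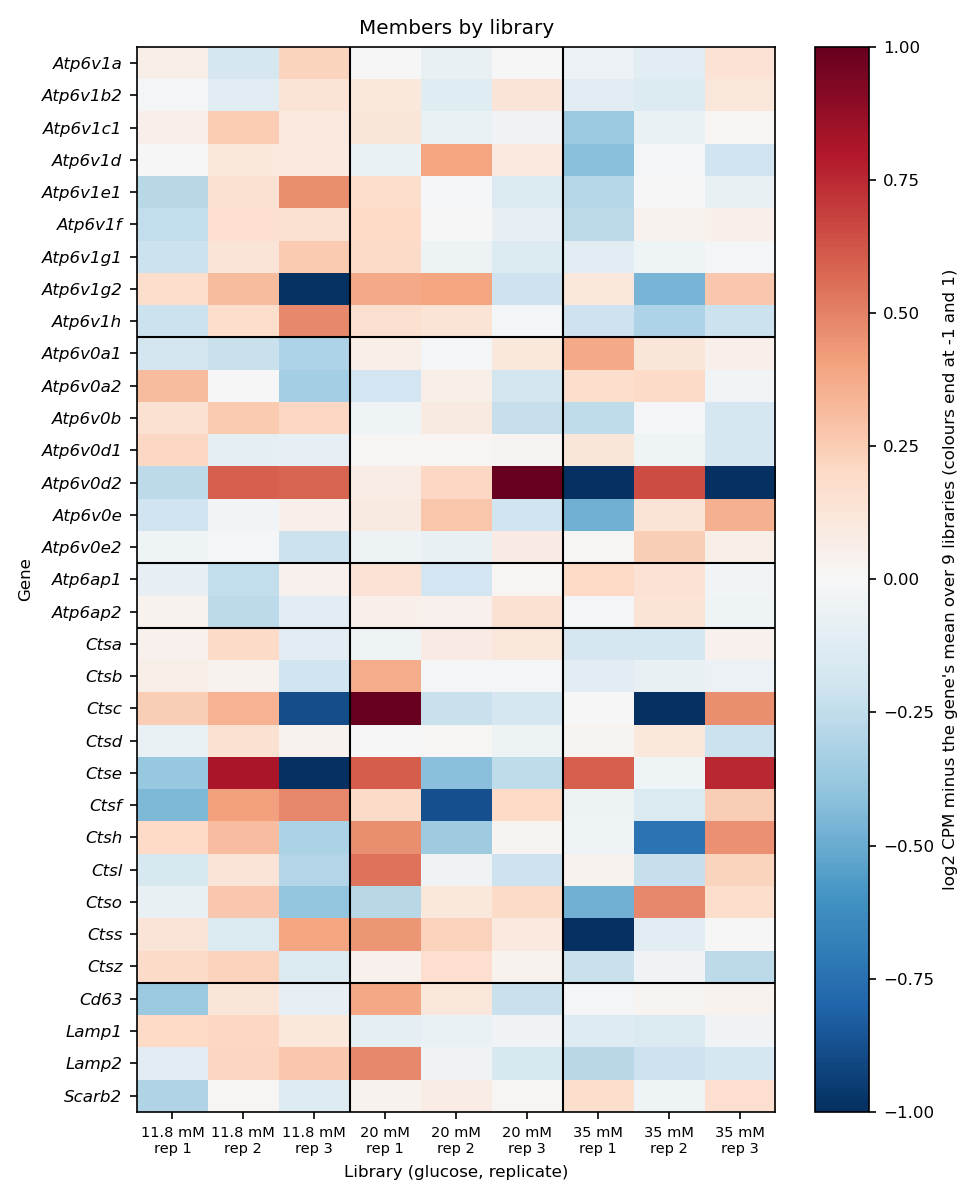
Each row is a tested member and each column a library, ordered 11.8, 20 and 35 mM; the colour gives log2 CPM minus the member's mean of log2 CPM over the 9 libraries, and colours end at -1 and 1. The strongest colours belong to Atp6v0d2, Atp6v1g2, Ctsc, Ctse and Ctss and differ between libraries of the same concentration.

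Of the 18 cathepsins 11 were tested and none was called. The most abundant was Ctsb (cathepsin B, a cysteine protease that can also cut trypsinogen), with 462.7, 455.3 and 386.0 CPM at 11.8 mM, 575.2, 436.9 and 441.3 CPM at 20 mM and 413.2, 421.6 and 426.9 CPM at 35 mM. The 35 mM libraries lay below the 20 mM libraries without overlap but inside the range of the 11.8 mM libraries. The log2 fold change was -0.20 ± 0.13 at 35 against 20 mM (edgeR adjusted p = 0.932) and -0.05 ± 0.13 at 35 against 11.8 mM. Exons of Ctsb overlap those of Fdft1 on the opposite strand. Ctsl (cathepsin L) followed with a mean of 115.9 CPM over the 9 libraries, and Ctsd (the aspartic protease cathepsin D) with 55.5 CPM. Exons of Ctsl overlap those of Gm49230 on the same strand and of Gm47123 on the opposite strand, and those of Ctsd overlap Gm49369 on the same strand, so that these levels and their order are uncertain. The largest absolute log2 fold change of Ctsd in any comparison was -0.07.

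Cathepsin S (Ctss), the protease that trims the invariant chain in antigen-presenting cells, lies at chr3:95526786-95556403 on the plus strand and had the smallest p among the members at 35 against 20 mM. It had 46.4, 38.4 and 55.6 CPM at 11.8 mM, 57.6, 49.8 and 45.4 CPM at 20 mM and 20.7, 39.2 and 42.3 CPM at 35 mM. All 35 mM libraries were below all 20 mM libraries, with 35 mM replicate 1 far below the rest. The log2 fold change was -0.58 ± 0.21 at 35 against 20 mM (edgeR adjusted p = 0.905) and -0.46 ± 0.21 at 35 against 11.8 mM (adjusted p = 0.438). Without 35 mM replicate 1 these were -0.32 and -0.20, and without the outlying sub-libraries they were -0.60 and -0.56. The summed level of the immune markers was 203.7 CPM in 35 mM replicate 1, the highest of the 9. Across the list, 9 of 11 tested immune markers had a negative log2 fold change at 35 against 11.8 mM (median -0.29). Of these, 4 had an unadjusted edgeR p under 0.05 and 4 had no overlap between the libraries, all lower, and none was called. At 20 against 11.8 mM, 10 of 11 were negative (median -0.30), where Ctss was at 0.12. At 35 against 20 mM, 7 of 11 were negative (median -0.10). With the summed immune level as a covariate the log2 fold changes of Ctss were -0.63 at 35 against 20 mM and -0.64 at 35 against 11.8 mM (edgeR adjusted p = 0.894 and 0.244). Abundant markers weigh most in this sum, and Cd74 alone ran from 9.9 to 64.1 CPM over the libraries. The part of immune cells in the Ctss values was not tested.

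Cathepsin E (Ctse), an aspartic protease of gastric and other epithelia, and Ctsc, the dipeptidase that activates granule proteases of immune cells, were the variable members. Ctse had 10.1, 23.1 and 4.1 CPM at 11.8 mM, 20.0, 9.9 and 11.0 CPM at 20 mM and 19.9, 12.8 and 22.2 CPM at 35 mM. The values at 11.8 mM alone spanned all other values. In the same 3 libraries the acinar markers summed to 4819, 14556 and 4132 CPM and the ductal markers to 219.6, 314.1 and 196.9 CPM, in the same order of libraries as Ctse. At the other concentrations the order differed: the acinar sums were 13935, 8629 and 7950 CPM at 20 mM and 11533, 7817 and 7628 CPM at 35 mM, where the last library had the highest Ctse. The ductal sums were 325, 310 and 233 CPM at 20 mM and 334, 308 and 312 CPM at 35 mM, also in another order than Ctse. What part acinar or ductal cells had in Ctse was not tested. With the acinar level as a covariate its log2 fold change at 35 against 11.8 mM was 0.38, in place of 0.51 ± 0.58 (edgeR adjusted p = 0.858). Without 11.8 mM replicate 2 it was 1.34, with an adjusted p of 0.0962. Ctsc ran from 6.1 to 29.6 CPM over the 9 libraries, and its highest value was in 20 mM replicate 1. That library held the highest value for 8 of the 33 tested members, 4 of them cathepsins besides Ctss (Ctsb, Ctsc, Ctsh and Ctsl). In comparison, 11.8 mM replicate 2 held the highest for 7, and 11.8 mM replicate 3 the highest for 6 and the lowest for 7. The library 35 mM replicate 1, with its outlying sub-library, held the lowest for 10.

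The remaining tested cathepsins were Ctsa, Ctsf, Ctsh, Ctso and Ctsz, at means of 6.0 to 50.4 CPM, with log2 fold changes of -0.30 to 0.14 over the 3 comparisons. Among them Ctsz (cathepsin X) at 35 against 20 mM was the only case without overlap, with 44.5 ± 3.8 CPM at 35 mM and 52.9 ± 2.7 CPM at 20 mM (SD, n = 3 each; -0.25 ± 0.15, edgeR adjusted p = 0.932). On the opposite strand, exons of Ctsz overlap those of Nelfcd, and exons of Ctsa overlap those of Neurl2 and Pltp, so that these counts are uncertain. Ctsk, the collagen-degrading cathepsin K of osteoclasts and fibroblasts, had 67 counts in all (0.8 to 4.6 CPM) and did not pass the filter. Cathepsins known from cytotoxic lymphocytes, neutrophils or mouse placenta were at or near 0: Ctsw had 5 counts, Ctsq 2, and Ctsg, Ctsj, Ctsm and Ctsr none. A count of 0 allows up to 0.0905 CPM over the 9 libraries together and 0.658 to 0.929 CPM in a library, counting error only. In all, 15 of the 48 members were not tested, 7 of them without a count and 7 with 1 to 5 counts.

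The basic helix-loop-helix factors TFEB, TFE3 and MITF are known to bind the E-box CACGTG in lysosomal promoters, in particular in a longer form (the CLEAR element). Their own genes were expressed at 1.5 to 4.5 CPM for Tfeb, 9.9 to 13.4 CPM for Tfe3 and 1.7 to 5.4 CPM for Mitf, with no call. RefSeq promoters (GRCm38.p6, 250 bases before to 50 after the start) were found for 37 of the 48 members, 24 of them tested. CACGTG occurred on either strand in 9 of these 24 genes (37.5%), against 12.3% of the 7768 tested genes with a promoter. TCACGTGA, which contains it, occurred in 5 of 24 (20.8%), against 2.45%, and the same 8 bases with a G before and a C after them in 0 of 24, against 0.875%. These motifs are palindromes, and each longer form contains the shorter. A match describes the sequence and does not show binding, and the 9 genes with CACGTG (Atp6v0b, Atp6v0d1, Atp6v0e, Atp6v1a, Ctsa, Ctsd, Ctsf, Ctsl and Lamp1) included none that was called.

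The 150 bases before the start are shown for Lamp1 and Atp6v0b, and for Atp6v1a, Ctsd and Ctsa, which carry the 8-base form. Lamp1 and Atp6v0b carry several E-boxes in this stretch. Both were lower in all 20 and 35 mM libraries than in all 11.8 mM libraries, but neither was called. A link between the motifs and these levels was not tested. Capitals mark CACGTG in the first 2 and TCACGTGA in the other 3. They lie at chr8:13159011-13159160 on the plus strand, chr4:117887330-117887479 on the minus strand, chr16:44139260-44139409 on the minus strand, chr7:142387828-142387977 on the minus strand and chr2:164833623-164833772 on the plus strand.
Lamp1: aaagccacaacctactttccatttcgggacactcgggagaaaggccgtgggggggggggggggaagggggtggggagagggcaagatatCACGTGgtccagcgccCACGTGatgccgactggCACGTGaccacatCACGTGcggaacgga
Atp6v0b: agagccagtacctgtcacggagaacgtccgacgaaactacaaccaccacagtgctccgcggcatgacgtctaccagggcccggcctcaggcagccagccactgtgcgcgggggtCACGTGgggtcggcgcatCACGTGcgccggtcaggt
Atp6v1a: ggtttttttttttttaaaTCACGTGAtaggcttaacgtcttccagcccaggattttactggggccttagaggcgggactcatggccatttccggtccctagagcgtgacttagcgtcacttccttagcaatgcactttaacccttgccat
Ctsd: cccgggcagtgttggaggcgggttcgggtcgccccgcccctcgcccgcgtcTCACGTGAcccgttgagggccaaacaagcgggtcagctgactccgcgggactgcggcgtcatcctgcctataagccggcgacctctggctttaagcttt
Ctsa: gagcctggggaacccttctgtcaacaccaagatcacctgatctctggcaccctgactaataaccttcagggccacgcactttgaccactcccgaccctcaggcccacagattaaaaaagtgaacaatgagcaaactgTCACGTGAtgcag

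Lamp1 holds 4 E-boxes between 61 and 15 bases before the start, and Atp6v0b holds 2 between 36 and 18 bases before it. The CACGTG inside the 8-base form begins 131 bases before the start in Atp6v1a, 98 in Ctsd and 12 in Ctsa. Over the full 300 bases searched, Ctsd and Ctsa hold 2 CACGTG each, as many as Atp6v0b, and the stretches shown hold 1 of them each. The genes shown were chosen with their values known. At 35 against 11.8 mM the log2 fold changes of all 9 genes with CACGTG were -0.28 for Lamp1, -0.35 for Atp6v0b, -0.05 for Atp6v1a, -0.07 for Ctsd, -0.14 for Ctsa, -0.04 for Atp6v0d1, 0.10 for Atp6v0e, -0.18 for Ctsf and 0.12 for Ctsl. Atp6v0d1 and Atp6v0e also carry the 8-base form and are not printed.

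Around the members, 7 lists of genes of the same pathway gave 1 call among 117 tested genes at 35 against 11.8 mM. That is 0.855%, beside 0.863% of all genes tested, and 47.9% of the list genes had a log2 fold change above 0, beside 49.6% of all genes. Wipi1, a phosphoinositide-binding protein of the forming autophagosome, had 74.1, 83.3 and 76.7 CPM at 35 mM, against 45.8, 41.4 and 39.0 CPM at 11.8 mM. The libraries did not overlap, and it rose with a log2 fold change of 0.89 ± 0.14 (edgeR adjusted p = 0.000615), a call that held in 19 of 19 alternative settings. At 20 mM it had 50.5, 64.7 and 55.0 CPM, all above 11.8 mM and below 35 mM (0.43 ± 0.15 at 20 against 11.8 mM, adjusted p = 0.349). Of the other 15 autophagy genes, none was called at 35 against 11.8 mM (6 positive and 9 negative).

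Soluble hydrolases other than cathepsins had 0 of 33 tested genes called at 35 against 11.8 mM, 20 positive and 13 negative, with a median log2 fold change of 0.11. The smallest p was that of Gla, the alpha-galactosidase deficient in Fabry disease, with 39.4, 40.9 and 48.0 CPM at 35 mM, against 26.4, 33.6 and 21.3 CPM at 11.8 mM. The groups did not overlap, and the log2 fold change was 0.65 ± 0.17 (edgeR adjusted p = 0.0600). Grn, the precursor of the granulins, whose exons overlap those of Fam171a2 on the opposite strand, was next (-0.41 ± 0.14, adjusted p = 0.238). Neither was called at 20 against 11.8 mM (0.57 ± 0.17 and -0.33 ± 0.14).

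V-ATPase assembly factors and regulators had 0 of 13 tested genes called in any comparison, 4 positive and 9 negative at 35 against 11.8 mM. Vma21, the chaperone that assembles V0 in the endoplasmic reticulum, had 110.5, 86.9 and 78.7 CPM at 20 mM, against 62.6, 53.2 and 72.2 CPM at 11.8 mM (log2 fold change 0.56 ± 0.15, edgeR adjusted p = 0.150). Its change was 0.27 ± 0.15 at 35 against 11.8 mM, where Clcn3, a chloride-proton exchanger, had the smallest p (-0.33 ± 0.17, adjusted p = 0.497). The other lists held no call either at 35 against 11.8 mM: 0 of 18 further membrane proteins and transporters (Npc2 -0.35 ± 0.15), 0 of 13 genes of mannose 6-phosphate tagging and sorting (Vps26a -0.41 ± 0.15 and Sorl1 0.44 ± 0.18), 0 of 19 genes of the TFEB family, Ragulator, Rag GTPases and mTORC1 (Fnip2 -0.76 ± 0.30 and Flcn -0.71 ± 0.29), and 0 of 5 cathepsin inhibitors (Serpinb6a 0.30 ± 0.15 and Cstb 0.24 ± 0.19). At 20 against 11.8 mM and at 35 against 20 mM none of the 7 lists held a call. Median log2 fold changes of the lists ran from -0.11 to 0.24 at 35 against 11.8 mM.

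**Figure D5:**
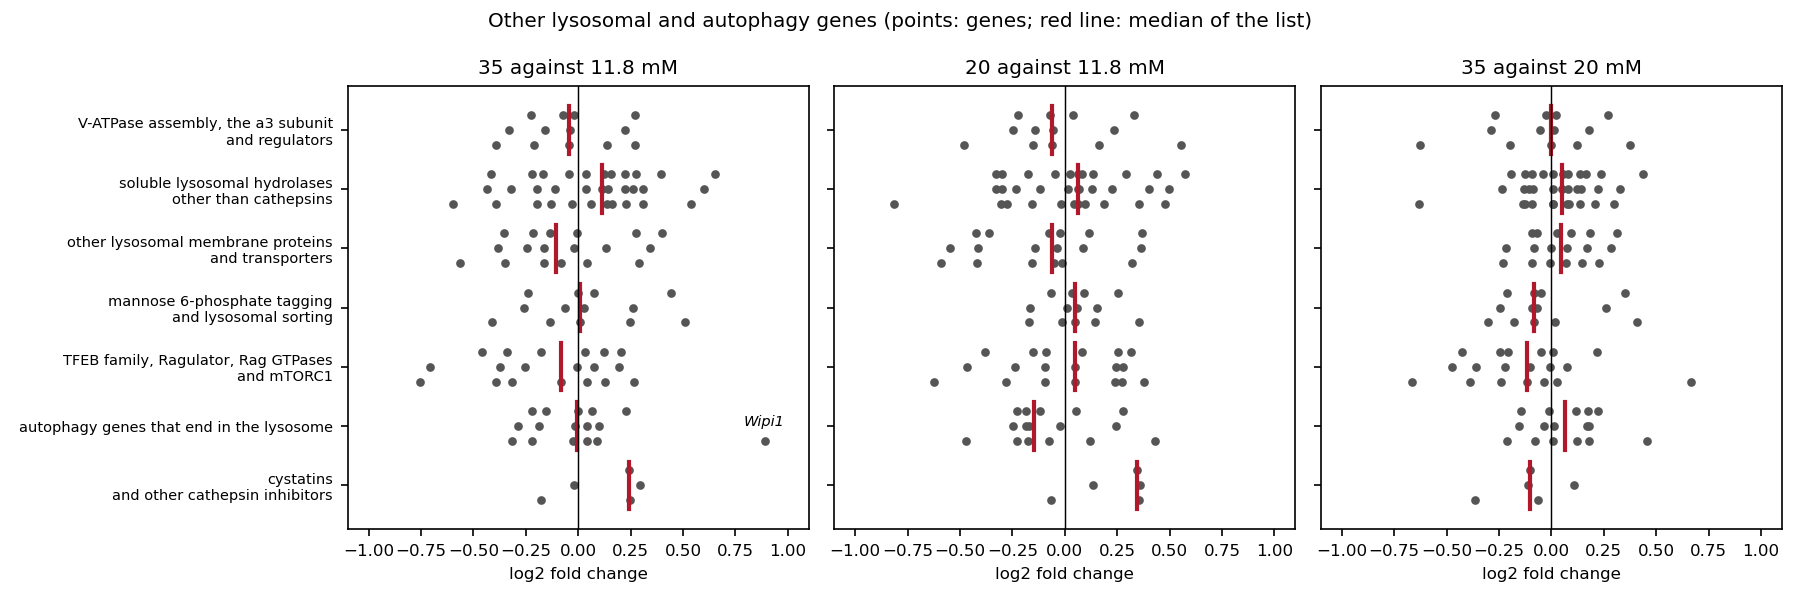
Log2 fold change of each tested gene (points) of the 7 pathway lists, with the list's median (red line), at 35 against 11.8 mM, 20 against 11.8 mM and 35 against 20 mM. At 35 against 11.8 mM the medians run from -0.11 to 0.24, and Wipi1, the labelled point in the autophagy list, is the only called gene, at 0.89.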

How the data were processed

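RNA of 3 ng input was made into CEL-Seq2 libraries and sequenced with 15 bases of read 1 and 52 of read 2, per the labels' protocols. The authors deposited whole read counts of genes for 27 barcoded sub-libraries. Build GRCm38.p4 and the tools cutadapt, TopHat, HTSeq and DESeq2 are named in the submitters' processing notes; no version or annotation is named, and the strand of counting is not given in the sources used here. Counts were not collapsed by molecular identifier: the highest was 605402 in a sub-library, and 16 genes exceeded the 4096 possible identifiers of 6 bases. A read is therefore not always a molecule of its own. The Wilson intervals and the count floors cover counting error of reads only, and may be too tight. Intervals of fold changes also take in the spread between libraries. The deposited sample sheet assigned sub-libraries to samples, and they were summed to 9 libraries; 30 columns of per-sample values in other tables were not tied to a sample and were not used. From 22145 features, 92 spike-ins (0.0252% to 0.0322% of the gene counts) and 5 summary lines (19.6% to 29.9% of all counted reads) were left out. Symbols, coordinates and exon overlaps came from GENCODE M21, which matched 21858 of 22048 genes; Meak7, of the assembly list, was not matched.

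Tests used R 4.3.3 with edgeR 4.0.16: TMM, filterByExpr by group, 1 mean per concentration, the 9 libraries fitted together with 6 residual degrees of freedom, the robust quasi-likelihood test and Benjamini-Hochberg adjustment over 9739 genes, with calls at an adjusted p under 0.05. "Rose" and "fell" are used for calls only. The smallest p of an exact permutation test with 3 libraries a group is 0.1. Alternatives were DESeq2 1.42.0, its size factors, other filters, removal of abundant genes, sub-libraries or single libraries, marker covariates, a replicate block and fits of 2 concentrations. Promoters and motif searches used Python 3.11.15.

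The members and gene lists were chosen with earlier results of these data known. Values in all 9 libraries are given for called members, for the 8 members with the smallest unadjusted p in any comparison and for the member with the highest mean CPM of each role; from each list, up to 4 called genes or the 2 with the smallest p are named, at 35 against 11.8 mM, with 1 gene left unreported. Ctse, Ctsc, Ctsz, Atp6v1c1, Vma21 and the other members given with values were described after their values were seen.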

Additional observations from a re-analysis of the deposited data

How the results depend on the processing

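The number of members called was 0 in each of 19 alternative settings at 20 against 11.8 mM and in each of 19 at 35 against 20 mM. At 35 against 11.8 mM it was 0 in 18 of 19; leaving out a library in turn gave 0 to 1, the 1 being Atp6v1h without 11.8 mM replicate 1 (-0.58, edgeR adjusted p = 0.0409). The same settings called 41 to 148 of all genes at 35 against 11.8 mM, 7 to 65 at 20 against 11.8 mM and 1 to 7 at 35 against 20 mM, beside 84, 18 and 3 as reported. The median log2 fold change of the members ran from -0.13 to -0.02, from -0.01 to 0.08 and from -0.15 to -0.03 when a library was left out, so its sign at 20 against 11.8 mM was not stable, and the cause was not tested. Wipi1 at 35 against 11.8 mM ran from 0.82 to 0.95 and was called in 19 of 19 settings. With the replicate number as a block, 0 members were called in each comparison and 74, 13 and 3 of all genes. Deviations of libraries with the same number had correlations of -0.157 to 0.046, beside -0.166 to 0.174 for libraries with different numbers. No pairing by number was seen, and with 3 libraries a group the check cannot exclude it. DESeq2 gave an adjusted p for only 11 members at 20 against 11.8 mM, because of its own filtering. Low counts limit Atp6v0d2, Atp6v1g2, Ctsf and Ctsh, each under 10 CPM on average.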
